A study of Homo sapiens with 8 samples.

Results

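Inhibitory neurons that carried SLC6A5 or PAX2 made up 1053 of the 43693 cells (2.41%). SLC6A5 encodes the glycine transporter of the presynaptic membrane that marks glycinergic neurons, and PAX2 encodes a paired-box transcription factor. The members were chosen from measured values: an entry of at least 1 for SLC6A5 or PAX2, an entry of at least 1 for GAD1, GAD2 or SLC32A1, entries of at least 1 for at least 2 of the 5 neuron genes STMN2, DCX, SYT1, SNAP25 and ELAVL4, and exactly 0 for DLX1, DLX2, DLX5 and DLX6-AS1. They were compared with 8025 DLX neurons, which met the same neuron and GABA criteria, had an entry of at least 1 for one of the DLX genes and had neither SLC6A5 nor PAX2 at 1 or more.

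Glycine and GABA are the inhibitory transmitters of the hindbrain and spinal cord, where many interneurons use one or both. Glycinergic neurons take glycine up through the transporter encoded by SLC6A5 and load it into vesicles with the carrier encoded by SLC32A1, which GABA shares, while GAD1 and GAD2 make GABA from glutamate. In the dorsal hindbrain and spinal cord PAX2 is expressed in newly born inhibitory neurons together with LHX1, LHX5 and PAX8, whereas DLX genes mark inhibitory neurons of the forebrain.

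The study measured RNA of single cells in 2-D and 3-D neural cultures made from the human embryonic stem cell line H1, and asked which cells the culture conditions held and how they responded to dopamine, cocaine and morphine. Cells were barcoded by repeated splitting and pooling, and the 8 samples are sublibraries of a single pool, with all treatments listed together in their labels. Each cell name carried 1 of 46 culture tags, made of an arrangement, a treatment and a number, in 17 groups. The arrangements 2DCocu (12 tags) and 3DFusi (10 tags) carried AcCoc, AcMor and Vehic, with 4 tags of each in 2DCocu and 4, 3 and 3 in 3DFusi. Both 2DMono and 3DMono had 6 tags, 2 each of AcDop, AcMor and Vehic. Treatment was given as none in 2DProto2Fjo, 2DProto3Wu and 2DProto4Nic, with 2 tags each, and in 3DProto1For and 3DProto2Xia, with 3 tags each. All tags share the H1 line, and the labels define neither the arrangement nor the treatment letters, nor the age of the cultures, so the tags are used as written. Whether numbered tags are separate cultures is not stated, so each p-value below measures the spread between tags, which may be technical.

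A tag held 317 to 1959 cells, and a cell had a median of 12776 expected counts, against 13751 in members and 12518 in DLX neurons. The sublibraries each held between 2.19% and 2.56% members. Of the 3-part barcodes, 2393 occurred in more than 1 sublibrary and none more than once within a sublibrary, and 101 members carried such a barcode. Doublet scores called 53 members (5.03%) against 5.46% of the DLX neurons, and these cells were kept.

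Within the members, 603 had SLC6A5 and 995 had PAX2, and 545 had both. These 545 cells were 90.4% of the SLC6A5 cells and 54.8% of the PAX2 cells, so PAX2 alone (450 cells) was far more common than SLC6A5 alone (58 cells). Both genes chose the members, so their levels are a description: summed over all members SLC6A5 stood at 157 CPM (counts scaled to the summed total of the cells) with an entry in 57.3% of the cells, and PAX2 at 359 CPM with an entry in 94.5%. GAD2 had an entry in 75.8% of members (164 CPM), GAD1 in 66.8% (91.0 CPM) and SLC32A1 in 14.8% (8.05 CPM). As the background, cells without the neuron call had SLC6A5 in 0.627% and PAX2 in 4.28% at a median of 11556 counts. Neurons without GAD1, GAD2 or SLC32A1 had them in 1.23% and 4.22% at a median of 13266 counts.

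Near the limits of the rule, 171 members had their larger entry for SLC6A5 or PAX2 between 1 and under 2, and 6 cells met all other criteria with an entry above 0 and under 1. The neuron criterion was met with exactly 2 genes by 120 members, and 68 cells that met the rest of the rule had 1. A further 626 inhibitory neurons had SLC6A5 or PAX2 together with a DLX entry and were no members.

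The promoters of SLC6A5, the gene that names the glycinergic members, and of PAX8, the gene with the largest difference from DLX neurons among the 6 factors described below, are shown for context. Each sequence is the 250 bases before the start in RefSeq (build GRCh38.p14), 5′ to 3′ on the gene's strand, and capitals mark CAGCTG, an E-box that reads the same on both strands and is bound by basic helix-loop-helix factors. The SLC6A5 window lies at chr11:20599358-20599607 on the plus strand and the PAX8 window at chr2:113278922-113279171 on the minus strand.
SLC6A5: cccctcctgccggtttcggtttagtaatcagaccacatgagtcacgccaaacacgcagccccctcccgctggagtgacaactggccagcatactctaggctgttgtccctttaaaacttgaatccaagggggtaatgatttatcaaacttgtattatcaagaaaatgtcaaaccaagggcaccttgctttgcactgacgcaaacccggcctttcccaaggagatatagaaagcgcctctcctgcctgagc
PAX8: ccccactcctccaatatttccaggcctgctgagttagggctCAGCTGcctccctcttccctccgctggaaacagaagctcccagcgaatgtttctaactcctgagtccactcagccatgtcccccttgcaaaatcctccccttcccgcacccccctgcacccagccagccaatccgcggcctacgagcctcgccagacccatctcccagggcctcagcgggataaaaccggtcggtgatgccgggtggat
The motif occurred once in the PAX8 window, with its first base at -209 from the start, and these letters were not in the SLC6A5 window. Of all 35116 promoters of this length in the table, 4911 (13.99%) held it. Windows were found for 6 of 8 genes looked for (SLC6A5, PAX2, PAX8, TFAP2A, TFAP2B and SKOR1), of which PAX8 alone held the motif, and a match is only a description.

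Members were found in all 9 arrangements but were unevenly spread. The 2DCocu tags held 660 of them among 10414 cells, 3DProto1For held 135 among 2005, 3DFusi 114 among 9765 and 3DProto2Xia 42 among 2965. The other arrangements held few: 28 of 2019 cells in 2DProto4Nic, 23 of 6964 in 3DMono, 19 of 2272 in 2DProto3Wu, 17 of 4842 in 2DMono and 15 of 2447 in 2DProto2Fjo. Most glycinergic members came from 2DCocu, where 512 of the 660 had SLC6A5. In 3DFusi 31 members had it and in 3DProto1For 35. The share of members with SLC6A5 was 77.6% in 2DCocu, 27.2% in 3DFusi and 25.9% in 3DProto1For, and with every cell thinned to 5000 counts these shares were 71.8%, 18.2% and 25.0%.

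Thinning every cell to 5000 counts, with shallower cells left out, lowered the number of members in all 9 arrangements. The median member had 69929 counts in 2DProto4Nic and 46795 in 2DMono, against 11877 in 2DCocu. At 5000 counts per cell, 1 member was left in each of 2DProto4Nic and 2DMono, 3 in 2DProto2Fjo, 9 in 2DProto3Wu, 13 in 3DMono and 27 in 3DProto2Xia, against 471 in 2DCocu, 76 in 3DProto1For and 55 in 3DFusi. The members of 2DProto4Nic and 2DMono also differed in the transcription factors described below.

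The label was set beside LHX1, LHX5, PAX8, TFAP2A, TFAP2B and SKOR1, 6 transcription factors of dorsal hindbrain and spinal inhibitory neurons that the rule did not use. They were taken from 18 listed factors with their higher level in members known, so the shares are a description. At least 1 of all 18 was at 1 or more in 96.4% of members and 93.1% of DLX neurons, with means of 2.90 and 2.05 factors per cell. Of the 6, at least 1 was at 1 or more in 733 members (69.6%) and in 904 of the 8025 DLX neurons (11.3%). The share of members was 72.6% in 2DCocu, 78.5% in 3DProto1For, 62.3% in 3DFusi, 69.0% in 3DProto2Xia, 78.3% in 3DMono, 68.4% in 2DProto3Wu and 60% in 2DProto2Fjo. DLX neurons of the same arrangements lay between 7.97% and 22.1%. In 2DProto4Nic only 5 of 28 members had any of the factors (17.9%, against 11.5% of its DLX neurons). In 2DMono 3 of 17 had one (17.6%, against 5.4%). Those members were deeper than their DLX neurons, with medians of 69929 and 46795 counts against 26054 and 9906. Members of 2DProto2Fjo were deep as well, with a median of 50703 counts against 17383 in its DLX neurons. Few members of 2DProto4Nic and 2DMono thus had any of these 6 factors, and these cells are called here only by the rule, as cells with SLC6A5 or PAX2. Because the 6 were picked with their level in members known, this is no test of the label in any arrangement.

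HOX genes, which are expressed in the hindbrain and spinal cord in an order that follows the body axis, also differed between the members of the arrangements. At least 1 of the 21 listed HOX genes was at 1 or more in 55.3% of 3DFusi members and 52.6% of 3DProto1For members. The share was 30.4% in 3DMono, 16.1% in 2DCocu, 14.3% in 3DProto2Xia and 6.67% in 2DProto2Fjo. It was 0% in 2DMono, 2DProto3Wu and 2DProto4Nic. DLX neurons stood at 6.55% in 3DFusi, 6.34% in 3DProto1For, 0.778% in 3DMono, 6.03% in 2DCocu and 0.243% in 3DProto2Xia. Over all arrangements 2.68% of DLX neurons had one. The next shares are of 5 genes taken with their difference between arrangements or from DLX neurons known, and are a description. At least 1 of HOXA3, HOXB3, HOXB7, HOXC4 and HOXD3 was at 1 or more in 53.5% of 3DFusi members and 51.1% of 3DProto1For members. In 2DCocu the share was 4.39%, in 3DProto2Xia 9.52% and in 3DMono 26.1% (6 of 23). HOXA2, the HOX gene with the most anterior limit of expression, was the one seen most in 2DCocu, with an entry in 78 members (11.8%), against 9 in 3DFusi (7.89%) and 5 in 3DProto1For (3.70%). Within 3DProto1For, 82.9% of the 35 members with SLC6A5 had one of the 5 HOX genes, against 40% of the 100 with PAX2 alone. In 3DFusi these shares were 67.7% of 31 and 48.2% of 83. These shares pool the cells of all tags of an arrangement. The tag 3DProto1For 1 held 26 of the 35 and 42 of the 100, and the part of the tag in the gap was not tested.

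**Figure D1:**
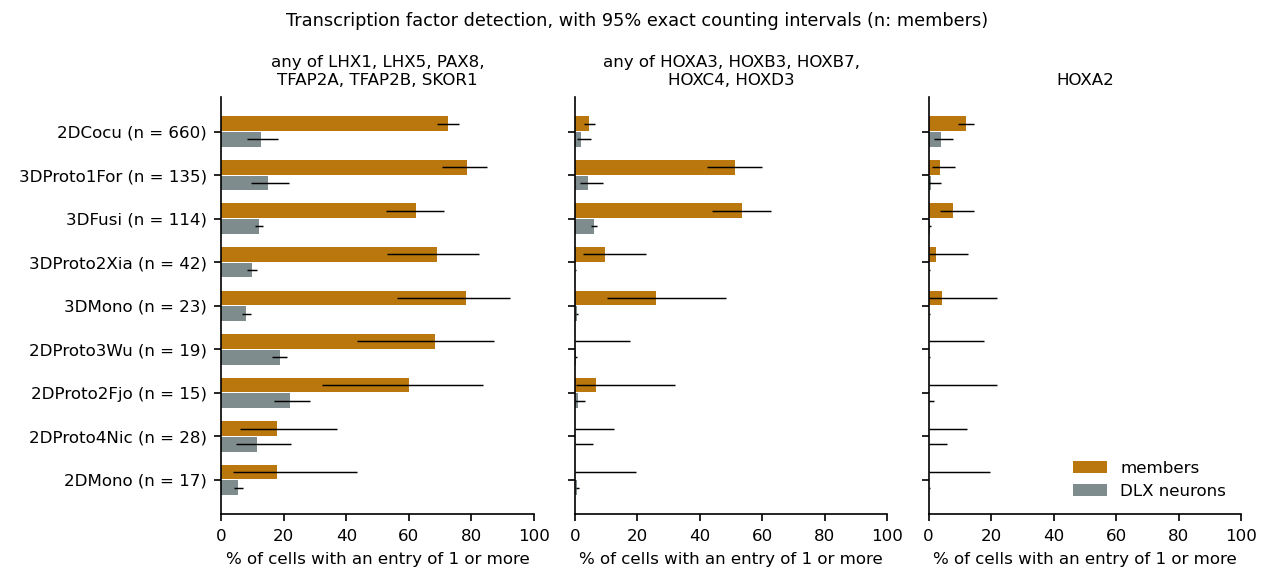
Percent of cells with an entry of at least 1 for any of the 6 dorsal factors, for any of the 5 HOX genes and for HOXA2, in members and DLX neurons of each arrangement, with exact binomial 95% intervals that cover counting error only. Members of 2DProto4Nic and 2DMono stand near the DLX neurons for the 6 factors, while 3DFusi and 3DProto1For members stand highest for the HOX genes, at 53.5% and 51.1%.

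Cells were also placed by their 30 nearest neighbours over variable genes with the 14 rule genes left out. On average 44.1% of a member's neighbours were members, against 2.41% of all cells and 0.633% for DLX neurons. The share was 58.3% in 2DCocu, where members of other tags were 51.3% of the 30 neighbours. In 3DProto1For the share was 28.9% (17.0% of the 30 were members of other tags). It was 22.5% in 3DProto2Xia, 20.4% in 3DMono and 19.3% in 3DFusi. Members of 2DProto4Nic (8.69%, 1.07% from other tags), 2DMono (6.47%), 2DProto3Wu (3.16%) and 2DProto2Fjo (2%) lay mostly among other cells. DLX neurons were 34.4% of the neighbours of 2DProto3Wu members, 10.7% in 2DProto2Fjo, 7.84% in 2DMono and 2.26% in 2DProto4Nic. Members of 2DProto3Wu and 2DProto2Fjo thus had fewer member neighbours than those of 2DProto4Nic and 2DMono, though more had any of the 6 factors.

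The share of members among the cells of a tag showed which cultures held them. In 2DCocu the 4 AcCoc tags held 5.56%, 7.44%, 7.67% and 9.94% members, the 4 AcMor tags 8.87%, 9.96%, 7.57% and 7.69%, and the 4 Vehic tags 5.00%, 3.62%, 1.86% and 3.62%. Every AcCoc and AcMor tag lay above every Vehic tag. In 3DFusi the 3 Vehic tags held 2.51%, 2.00% and 3.41%, the 3 AcMor tags 0.259%, 1.54% and 0.321%, and the 4 AcCoc tags 0.225%, 0%, 0.469% and 0.335%. There the Vehic tags lay above all others, the opposite order to that in 2DCocu.

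Other arrangements held few members in most tags. Shares ran from 0% to 0.562% in 2DMono and from 0.176% to 0.792% in 3DMono. In the 3-D cultures with no treatment the tags lay far apart: the 3 tags of 3DProto1For held 11.7%, 6.03% and 0.302%, and those of 3DProto2Xia 0.320%, 4.94% and 0.231%. Among inhibitory neurons these tags held 49.3%, 42.0% and 0.870%, and 0.554%, 33.3% and 0.374%. The spread between tags of one arrangement was thus as wide as that between arrangements. The tags of 2DProto2Fjo held 0.622% and 0.606%, those of 2DProto3Wu 1.40% and 0.446%, and those of 2DProto4Nic 0.587% and 1.80%.

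**Figure D2:**
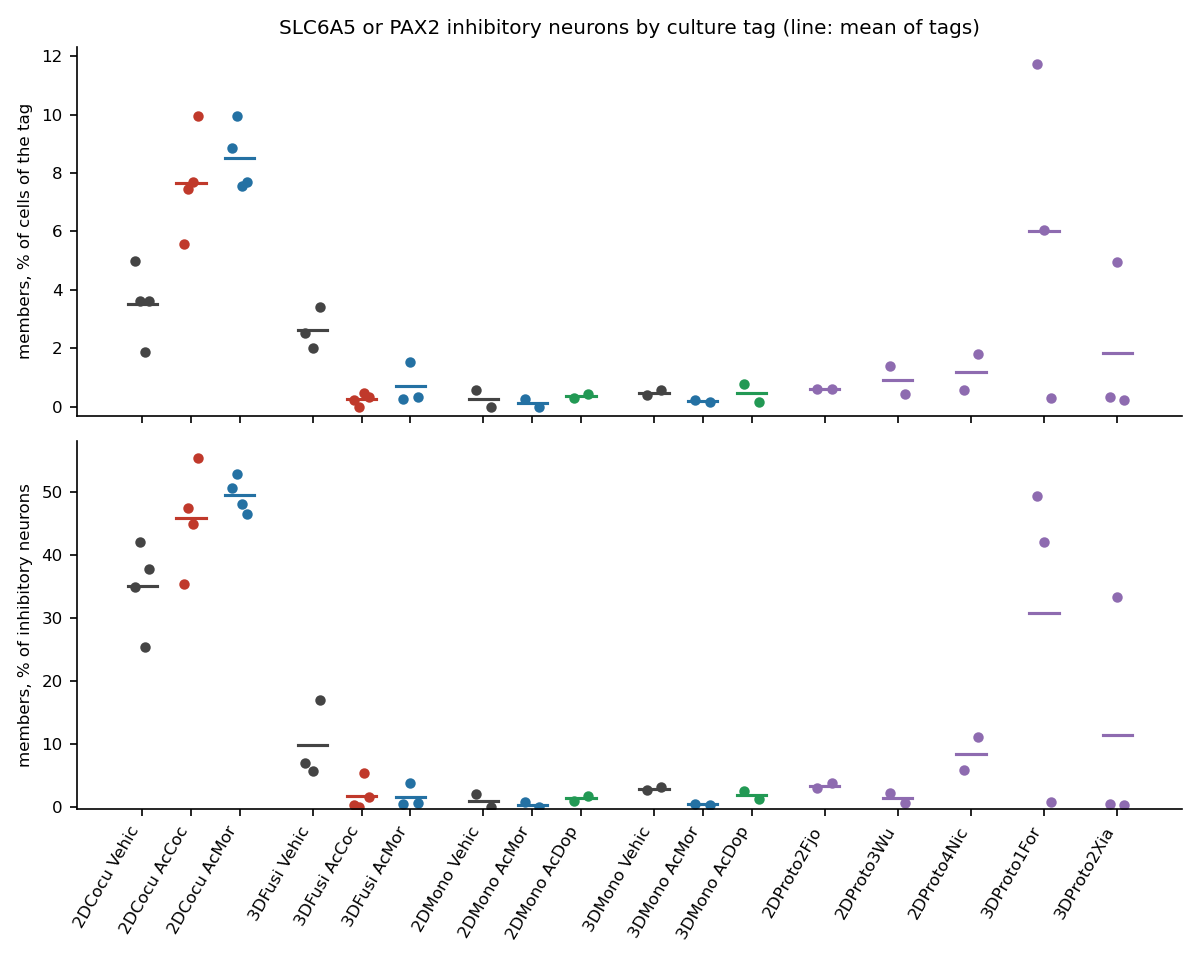
Members as a percent of all cells (upper) and of inhibitory neurons (lower) in each of the 46 tags, grouped by arrangement and treatment; points are tags and lines are group means. In 2DCocu the AcCoc and AcMor tags lie above the Vehic tags, in 3DFusi they lie below, and 3DProto1For and 3DProto2Xia each hold tags far apart.

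Shares were compared over tags with exact permutation of the tags within treatment. The 3DFusi tags held 5.37 percentage points fewer members of all cells than the 2DCocu tags, a two-sided exact permutation p of 7.0e-05 (10 against 12 tags, adjusted p 0.00014 over 2 comparisons). The difference was -9.49 points of neurons and -38.9 points of inhibitory neurons, and within single sublibraries it lay between -6.00 and -4.48 points of cells in all 8. Sublibraries hold cells of the same tags, so they add no replicates. Over the Vehic tags alone the difference between 3DFusi and 2DCocu was -0.886 points of cells (exact permutation, adjusted p 0.629). The call on the share of cells thus rests on the treated tags. With 3 against 4 Vehic tags that test could not have passed after adjustment. Neurons were 37.1% of cells in the Vehic tags of 2DCocu and 64.5% in those of 3DFusi. Of inhibitory neurons these tags held 25.5% to 42.1% and 5.75% to 17.0% members, without overlap. Of neurons they held 6.06% to 11.3% and 3.08% to 6.45%. The 3DMono and 2DMono tags differed by 0.131 points, less than the spread between tags (exact permutation p 0.370, with 6 against 6 tags). The 2DCocu tags held 5.82 points more members than the 2DMono tags over AcMor and Vehic, a comparison chosen after the data were seen. With 8 against 4 tags the exact permutation p was 0.00444, the smallest this design can give. Over Vehic alone the difference was 3.25 points (exact permutation p 0.0667), also the smallest p that 4 against 2 tags can give.

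Within arrangements, no contrast of a treatment with Vehic passed after adjustment over 8 contrasts, and with these numbers of tags none could. The lowest adjusted p possible by exact permutation was 0.0762. The tags of each treatment in 2DCocu and 3DFusi lay wholly apart from Vehic and gave the smallest two-sided p their numbers allow. In 2DCocu the mean share was 7.65% ± 1.79 (SD, n = 4) in AcCoc, 8.52% ± 1.12 in AcMor and 3.53% ± 1.29 in Vehic. The difference from Vehic was 4.13 points for AcCoc and 5.00 points for AcMor, each with a two-sided exact permutation p of 0.0286 and an adjusted p of 0.0762. In 3DFusi the mean was 0.257% ± 0.198 (SD, n = 4) in AcCoc, 0.707% ± 0.723 (n = 3) in AcMor and 2.64% ± 0.713 (n = 3) in Vehic. AcCoc lay 2.38 points below Vehic (exact permutation p 0.0286, adjusted 0.0762) and AcMor 1.93 points below (p 0.1, adjusted 0.2). With 2 tags a group in 2DMono and 3DMono the differences were between -0.288 and 0.0773 points, and no two-sided exact permutation p under 0.333 was possible.

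Neurons as a whole moved with the same labels in 2DCocu, where they were 66.0% ± 3.65 of the cells in AcCoc, 63.2% ± 2.26 in AcMor and 37.1% ± 5.51 in Vehic (SD, n = 4 each). As a share of neurons, members were 2.27 points higher in AcCoc (exact permutation, adjusted p 0.514) and 4.20 points higher in AcMor (0.114). Of the inhibitory neurons, members were 35.5% to 55.3% in the AcCoc tags, 46.5% to 52.8% in the AcMor tags and 25.5% to 42.1% in the Vehic tags, differences of 10.7 and 14.4 points with an adjusted p of 0.2 each by the same exact permutation test. The part of the neuron share in the difference was not tested beyond these denominators.

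Across genes, members were compared with the DLX neurons of the same tags, with expected counts summed per tag and class where both had at least 20 cells. This left 9 tags: 5 of 2DCocu, 2DProto4Nic 2, 3DFusi AcMor 3, 3DFusi Vehic 1 and 3DProto1For 1. Of 13715 genes tested, 197 (1.44%) passed edgeR's quasi-likelihood test with Benjamini-Hochberg adjustment and the tag as a block. Members were higher for 104 (0.758%) and lower for 93 (0.678%), and 102 and 89 of these were not rule genes. Without 2DProto4Nic 2, whose members lack most of the dorsal factors, 423 genes passed, and without AcCoc 1, AcCoc 2, AcCoc 3 or AcMor 4 of 2DCocu 109, 108, 126 and 102 passed. Of cycling genes edgeR called 0 of 7 tested (median log2 fold change -1.59), 5 were lower at an unadjusted p under 0.05 and DESeq2 called 4 lower. MKI67, a proliferation marker, had medians of 15.2 CPM in members and 67.5 CPM in DLX neurons. Of 8 progenitor genes edgeR called 1 lower, PAX6 (0.678% of all genes). The part of either list in the other calls was not tested.

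Of 13 dorsal hindbrain and spinal factors tested (18 listed) 6 were higher in members by edgeR's test, against 0.758% of all genes, and the median log2 fold change was 1.20 against 0.02 over all genes. edgeR called 0 of them lower, with 3 at an unadjusted p under 0.05 and below 0, SALL3 (-1.32) and RORB (-0.68) among them, and DESeq2 called 6 higher and 1 lower. LHX1, a LIM homeobox factor of inhibitory interneurons, had a lowest, median and highest level of 0.474, 26.6 and 55.8 CPM in the members of the 9 tags and of 0, 4.56 and 10.7 CPM in the DLX neurons. It was higher in 9 of 9 tags, and the one low member value was that of 2DProto4Nic 2 (log2 fold change 2.39, SE 0.36, edgeR adjusted p 0.0021). LHX5, its close relative, stood at 0.474, 19.9 and 29.6 CPM in members and at 0, 1.37 and 9.11 CPM in DLX neurons (log2 fold change 2.79, SE 0.42, edgeR adjusted p 0.0020, higher in 9 of 9 tags). For both genes the member value of 2DProto4Nic 2 lay under 3 counts, the floor used here, so that tag shows no clear difference.

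PAX8, the paired-box relative of PAX2, ranged from 0.892 to 93.2 CPM in members with a median of 6.14, and from 0 to 3.31 CPM in DLX neurons with a median of 0. The groups overlapped only at the low end, with members higher in 8 of 9 tags (log2 fold change 5.66, SE 0.82, edgeR adjusted p 0.0026). The RNA antisense to it, PAX8-AS1, was higher in 9 of 9 tags with medians of 11.2 and 0 CPM (log2 fold change 6.18), and without a stated use of strand its reads and those of PAX8 cannot be told apart. The AP-2 factors TFAP2A and TFAP2B, which act in dorsal inhibitory differentiation, were at 0 in the members of 2DProto4Nic 2 and had medians of 26.3 and 36.0 CPM over the members of the 9 tags, against 4.68 and 3.72 CPM in DLX neurons. Both were higher in 8 of 9 tags, with log2 fold changes of 2.73 and 3.06 (edgeR adjusted p 0.0016 and 0.0047). SKOR1, a corepressor that works beside LBX1, had medians of 37.0 and 3.31 CPM (log2 fold change 2.61, edgeR adjusted p 0.0109, higher in 8 of 9 tags). Over the 4 tags outside 2DCocu these 6 genes kept their direction, with edgeR adjusted p between 0.104 and 0.523, and in the 5 tags of 2DCocu alone LHX1 (2.69), LHX5 (3.34), TFAP2A (2.13), TFAP2B (3.36) and SKOR1 (3.56) passed, at edgeR adjusted p from 0.000121 to 0.00959. Against the inhibitory neurons with neither SLC6A5, PAX2 nor DLX genes TFAP2B was not called (1.11, edgeR adjusted p 0.0542).

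Of 12 forebrain GABAergic factors tested, 4 were lower in members, SP8 and SP9 among them, against 0.678% of all genes, and 1, NR2F2, was higher. The other 7 were not called. Members were chosen with 0 for the DLX genes and DLX neurons with an entry for at least 1 of them. Lower levels of forebrain factors that go along with DLX genes can thus follow from the choice, so the count is a description. SP9, a zinc-finger factor of forebrain interneurons, was at 0 in the members of all 9 tags and between 0.924 and 23.4 CPM in the DLX neurons, at least 35.6-fold lower against a floor of 3 counts over all members. SP8, its relative, had medians of 1.13 and 13.2 CPM (log2 fold change -3.58). NR2F2, a nuclear receptor present in several brain regions, had medians of 32.7 and 12.1 CPM (log2 fold change 1.04, edgeR adjusted p 0.0327). Leaving out any of several single tags, 3DFusi AcMor 3 among them, ended this call (edgeR adjusted p 0.0885), and so did the comparison with the inhibitory neurons with neither SLC6A5, PAX2 nor DLX genes (0.46, 0.0849). PAX6, from the list of regional genes, was also lower, with medians of 22.5 and 132 CPM (-2.36, edgeR adjusted p 0.0065).

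HOX genes passed in 4 of 7 tested (21 listed), all higher in members, against 0.758% of all genes, with a list median of 3.04. For HOXB7 (log2 fold change 4.65) the members of only 3 of 9 tags were above the DLX neurons, its median was 0 in both classes, and its highest member value was 102 CPM. HOXA3 (3.32) was higher in 7 of 9 tags with a median of 2.52 CPM and a highest value of 83.7, and HOXB3 (2.97) and HOXD3 (3.04) reached 94.0 and 132 CPM. The high values all came from 3DFusi and 3DProto1For. Without 3DFusi AcMor 3 HOXB7 and HOXB3 did not pass (edgeR adjusted p 0.0626 and 0.0639). DESeq2 called HOXA3 alone of the 4: HOXB7 reversed its sign there, to -0.04, HOXD3 had 1.29 (DESeq2 adjusted p 0.732) and HOXB3 1.82 (0.152). Against the inhibitory neurons with neither SLC6A5, PAX2 nor DLX genes HOXA3 (0.65, edgeR adjusted p 0.203) and HOXD3 (0.46, 0.515) were not called.

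**Figure D3:**
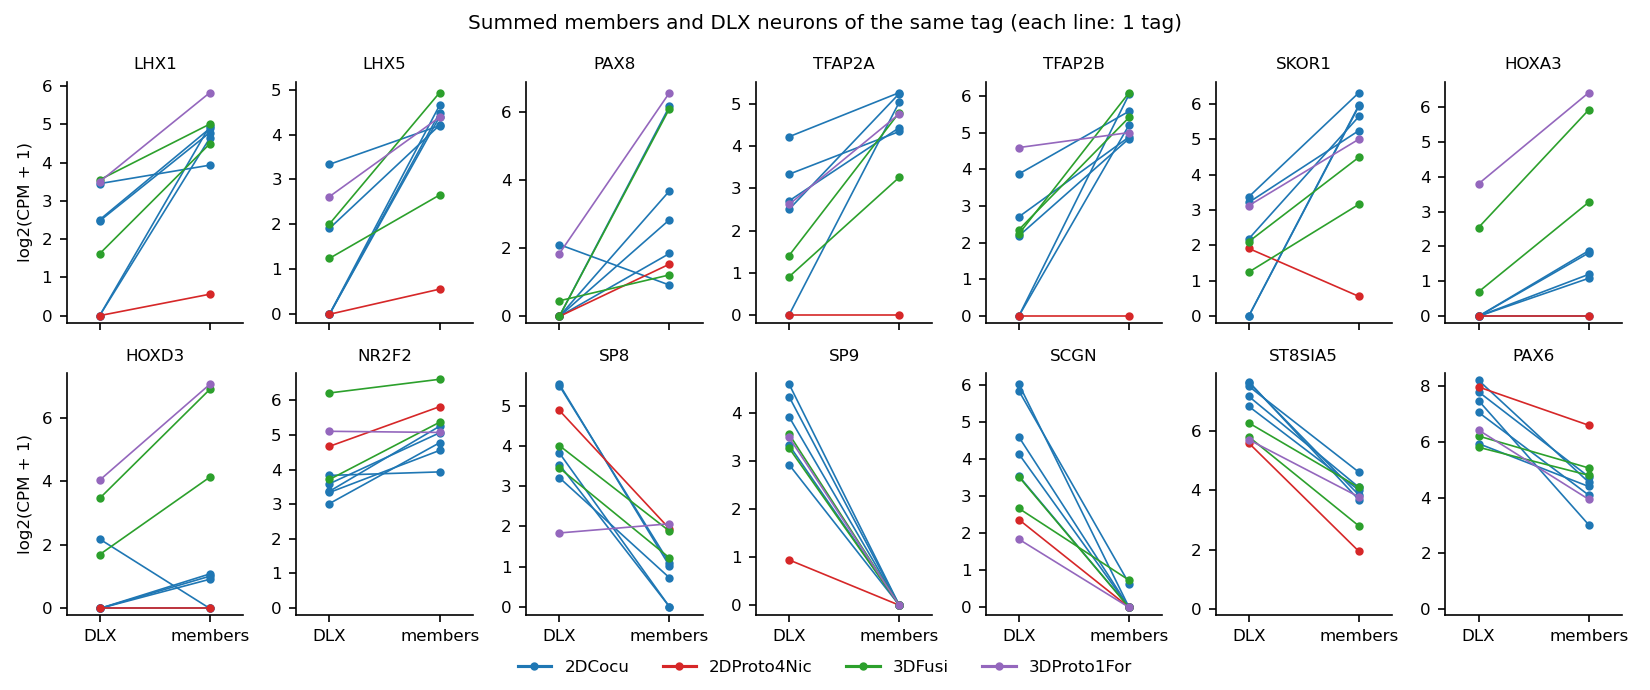
Levels of 14 genes in DLX neurons and members of the same tag, as log2(CPM + 1), with 1 line per tag coloured by arrangement. LHX1 and LHX5 are higher in the members of all 9 tags, though under 3 counts in those of 2DProto4Nic 2. SP9 is at 0 in every member sum, and HOXA3 and HOXD3 are highest in members of 3DFusi and 3DProto1For.

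Among the other genes with the largest differences, ROBO3, an axon guidance receptor that governs midline crossing of commissural neurons, had a lowest, median and highest level of 6.63, 147 and 174 CPM in members and of 0, 7.39 and 15.4 CPM in DLX neurons. It was higher in 8 of 9 tags (log2 fold change 3.21, SE 0.50, edgeR adjusted p 0.0118). SLC30A3, the zinc transporter of synaptic vesicles, had medians of 44.1 and 0 CPM (3.86) and LBX1-AS1, antisense to the dorsal factor LBX1, 11.6 and 0 CPM (3.83). The calls of ROBO3, SLC30A3 and LBX1-AS1 were lost in 2 of 20, 1 of 17 and 1 of 17 alternative settings. HOXB-AS3 also passed (3.76), with members higher in 3 of 9 tags, but not under DESeq2 (0.69, DESeq2 adjusted p 0.917) or with cells thinned to 5000 counts, which left 6 sums (5.02, edgeR adjusted p 0.0513). Both RNAs are antisense to a gene and subject to the same limit on strand.

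Lower in members were SCGN, a calcium-binding protein of olfactory-bulb and other interneurons, at no more than 0.663 CPM in members with medians of 0 and 10.6 CPM (log2 fold change -6.31), and ST8SIA5, a sialyltransferase of gangliosides, with medians of 13.4 and 114 CPM (-3.17, SE 0.21). METAP1D, a mitochondrial methionine aminopeptidase, had medians of 13.6 and 187 CPM (-3.03), SYNPR, a synaptic vesicle protein, 5.38 and 36.4 CPM (-2.81), and ABCB5, a membrane transporter, 2.05 and 14.2 CPM (-3.41). In the members of every tag SCGN, ST8SIA5 and SYNPR lay below the DLX neurons of that tag. Against the inhibitory neurons with neither SLC6A5, PAX2 nor DLX genes the calls ended and the log2 fold changes were -0.22 for ST8SIA5, -0.38 for METAP1D and -0.53 for SYNPR (edgeR adjusted p 0.642, 0.228 and 0.221).

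Of 10 genes of inhibitory transmission 1 was lower in members (not called against the inhibitory neurons with neither SLC6A5, PAX2 nor DLX genes), against 0.678% of all genes, and the median log2 fold change of the list was -0.06. No gene of 17 glycine and GABA receptor genes passed edgeR's test, with 3 at an unadjusted p under 0.05, and DESeq2 called 2. The glycine receptor subunits GLRA1 (medians of 24.6 and 11.2 CPM, log2 fold change 1.06) and GLRA3 (20.5 and 3.55 CPM, 2.11) had adjusted p of 0.0578 and 0.0964, GLRA2 had 0.42 (0.401), and GPHN, the scaffold of inhibitory synapses, had a log2 fold change of 0.16. GAD1, a rule gene given as a description, had -0.98.

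Members were then divided into those with SLC6A5 and those with PAX2 alone. With at least 20 cells of each kind only 2DCocu AcCoc 2 and 3DProto1For 1 entered, and 2 of 8819 genes (0.0227%) passed edgeR's test, SLC6A5 itself (higher, 0.0113%) and MYH8 (lower, 0.0113%). With at least 10 cells of each, which 10 tags met, 28 of 9843 genes passed (0.284%), 24 higher with SLC6A5 (0.244%) and 4 lower (0.0406%). SMOC2, a secreted calcium-binding matrix protein, had means of 238 CPM with SLC6A5 and 86.4 CPM with PAX2 alone, and was higher in 10 of 10 tags (log2 fold change 1.49, SE 0.17, edgeR adjusted p 2.04e-05). LAMP5, a lysosome-associated membrane protein of inhibitory terminals, had 84.0 and 23.3 CPM, also higher in 10 of 10 (1.78, SE 0.25, edgeR adjusted p 0.000585).

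Among the other genes higher with SLC6A5, RBFOX3, the neuronal nuclear antigen NeuN, had means of 506 and 267 CPM (0.90), DSCAML1, a cell adhesion molecule, 677 and 393 CPM (0.81), and NETO1, an auxiliary subunit of glutamate receptors, 133 and 42.3 CPM (1.49). NTSR1, a neurotensin receptor (1.08), PAX8-AS1 (2.17) and MEIS1, a homeobox partner of HOX proteins (0.56), were higher as well. The adhesion molecule ALCAM (153 and 258 CPM, -0.72) and LHFPL6 (161 and 312 CPM, -0.93) were lower. None of LHX1 (0.51), LHX5 (0.60), PAX8 (0.93), TFAP2A (-0.36), TFAP2B (-0.98) and SKOR1 (0.60) passed. MYH8, a muscle myosin that was lower with SLC6A5 (-3.37), had an entry in 14 members. In the comparison with at least 20 cells it was at 0 in 2DCocu AcCoc 2, and 3DProto1For 1 had 12 counts with SLC6A5 and 259 with PAX2 alone. DESeq2 did not call it. There 3 of 10 dorsal factors, 3 of 6 HOX genes and 3 of 6 mesenchymal genes were higher with SLC6A5 at an unadjusted p under 0.05, and edgeR called none. In 2DCocu AcCoc 2 ALDH1L1 was at 25.1 CPM with SLC6A5 and 140 CPM with PAX2 alone, SLC1A3 at 110 and 302 CPM and GFAP at 22.1 and 57.0 CPM. SLC1A2 had the opposite order, at 304 and 195 CPM. The part of these genes in the calls was not tested.

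Members of 3DFusi were compared with those of 2DCocu over tags with at least 20 members, which were 2 of 3DFusi (AcMor 3 with 20 members and Vehic 1 with 41) and 11 of 2DCocu. Of 12004 genes 2041 (17%) passed edgeR's test with treatment as a covariate, 858 higher in 3DFusi (7.15%) and 1183 lower (9.86%). Without 3DFusi Vehic 1, 590 passed, of which 480 were among the 2041, so the count rests largely on that tag. A fit without either tag leaves 1 tag of 3DFusi, which is then assumed to vary like the tags of 2DCocu.

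Of 5 HOX genes tested 4 were higher in 3DFusi members (HOXB3, HOXB7, HOXC4 and HOXD3), against 7.15% of all genes. DESeq2 called 3 of these 4, without HOXB7 (DESeq2 adjusted p 0.197). Among the 2DCocu tags alone, 1 of the 21 listed HOX genes passed the filter on low counts. The 4 genes thus entered the test largely through the 3DFusi tags where they are high, so their count is a description. HOXB7 was at 0 in all 11 tags of 2DCocu and at 102 and 17.9 CPM in the 2 of 3DFusi, at least 134-fold higher against a floor of 3 counts over the 2DCocu members. HOXD3 was at 118 and 16.6 CPM against a lowest, median and highest value of 0, 1.02 and 5.94 CPM (log2 fold change 5.29), and HOXB3 at 91.4 and 20.5 CPM against 0, 0 and 5.07 CPM (5.32). HOXC4 was at 29.6 and 14.6 CPM against at most 1.26 CPM (6.46), and no values of the 4 genes overlapped between the arrangements, as for 20.8% of all genes tested. HOXA2 was not called: it ran from 0 to 1.99 CPM in 3DFusi and from 0 to 13.8 CPM in 2DCocu (-1.88, edgeR adjusted p 0.195). Members of 3DProto1For, which entered no such test, had HOXB3 at 12.6 and 94.2 CPM and HOXD3 at 19.4 and 132 CPM in their 2 large tags.

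Of 9 regional genes tested 3 were higher in 3DFusi members and 1 lower, against 7.15% and 9.86% of all genes. PAX7, a paired-box factor of the dorsal midbrain, hindbrain and cord, was at 24.2 and 27.8 CPM in 3DFusi and at 0, 0 and 3.41 CPM in 2DCocu (log2 fold change 4.64). IGF2, a growth factor, was at 195 and 511 CPM against 2.68, 4.54 and 22.9 CPM (5.49, SE 0.37, edgeR adjusted p 3.41e-08). Among the 10 dorsal factors tested BHLHE22 (1.62) and SALL3 (2.20) were higher in 3DFusi and SKOR1 (-1.90) and RORB (-1.27) lower, but without Vehic 1 SALL3, SKOR1 and RORB did not pass (edgeR adjusted p 0.133, 0.354 and 0.315), with log2 fold changes of 2.14, -1.63 and -1.30. Nor did SKOR1 and RORB without AcMor 3 (-2.16 and -1.28, edgeR adjusted p 0.105 and 0.129). The call of BHLHE22 ended without 2DCocu Vehic 2 or Vehic 4 (edgeR adjusted p 0.0555 and 0.0738), under DESeq2 (0.0501) and with at least 40 cells per tag (0.107). LHX1, LHX5, PAX8, TFAP2A and TFAP2B did not pass, with log2 fold changes between -0.99 and 1.64. HOXB-AS3, an RNA antisense to HOXB genes (8.79), and the lectin gene CLEC2A (3.61) were also higher. The call of CLEC2A was lost in 6 of 20 alternative settings, among them the fits with 1 of the 3DFusi tags (4.19 and 3.23).

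Immediate early genes, which neurons switch on quickly after stimulation, were higher in 3DFusi members in 4 of 9 tested, against 7.15% of all genes. The median over the list was 0.60 against 0.03 over all genes. edgeR called 0 of the 9 lower, with 1 lower at an unadjusted p under 0.05. NPAS4 ran from 0 to 1.33 CPM in 3DFusi, against a lowest, median and highest value of 4.46, 9.14 and 34.5 CPM in 2DCocu. FOS was at 78.0 and 111 CPM in 3DFusi against 5.35, 12.3 and 17.5 CPM in 2DCocu (log2 fold change 3.32), JUN at 83.4 and 83.5 CPM against 2.61, 9.08 and 20.4 CPM (2.87), and JUND at 33.1 and 40.3 CPM against 0, 4.33 and 9.57 CPM (2.64). EGR1 passed with all tags (1.74) and not without Vehic 1 (1.06, edgeR adjusted p 0.164). DLX neurons of the same arrangements also had more FOS in 3DFusi, with a lowest, median and highest value of 33.2, 72.5 and 175 CPM over 10 tags against 8.28, 11.7 and 35.4 CPM over 5 tags of 2DCocu. NPAS4 had the opposite order to that in members, at 21.3, 28.3 and 45.4 CPM in 3DFusi DLX neurons against 3.30, 10.6 and 18.2 CPM. In DLX neurons IGF2 stood at 27.4, 149 and 1133 CPM against 2.27, 19.6 and 32.7 CPM. HOX genes were at low levels there: HOXB7 had a median of 1.49 CPM and a highest value of 4.96 CPM in 3DFusi against 0 in 2DCocu, HOXD3 medians of 5.91 and 0 CPM, and HOXB3 5.37 and 1.10 CPM. HOXB-AS3 was higher, with a median of 17.9 and a highest value of 68.6 CPM in 3DFusi DLX neurons against a median of 1.10 CPM. Whether these differences are the same size in members and DLX neurons was not tested.

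In the other direction, 2DCocu members had more RNA of LINC02211, a long noncoding RNA at 1.33 and 2.69 CPM in 3DFusi and at 149, 227 and 368 CPM in 2DCocu (log2 fold change -7.03), and its level in DLX neurons showed the same order, with medians of 0.726 and 117 CPM. HTR7, a serotonin receptor, was at 0 in both 3DFusi tags and at 7.87, 16.2 and 25.6 CPM in 2DCocu, at least 10.6-fold lower in these tags. Its call was lost in 2 of 20 alternative settings, the fit without Vehic 1 among them, though AcMor 3 alone was also at 0. CPNE8, a calcium-dependent membrane-binding protein, was at 0 and 1.33 CPM against 45.7, 69.6 and 99.2 CPM (-6.13). LINC01512, LINC00492, IGFBP7-AS1 and TMED11P were at 0 in 3DFusi, at least 6.86-fold, 7.40-fold, 6.65-fold and 6.00-fold lower, with edgeR adjusted p of 0.129, 0.155, 0.172 and 0.211 from AcMor 3 alone, also at 0, and LSP1P4, a pseudogene whose reads its parent gene could share, had a log2 fold change of -6.04.

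Synaptic genes of the members also differed. Of 16 glycine and GABA receptor genes 4 were lower in 3DFusi members and 1 higher, against 9.86% and 7.15% of all genes. GLRA2, the embryonic glycine receptor subunit, was at 48.4 and 143 CPM in 3DFusi and at 150, 216 and 319 CPM in 2DCocu (log2 fold change -1.67), a call lost without Vehic 1 (-0.82, edgeR adjusted p 0.304). GABBR2, a GABA-B receptor subunit, was at 56.5 and 183 CPM against 230, 276 and 363 CPM (-1.28) and GABRB1 had -1.38, while NLGN2, the adhesion molecule of inhibitory synapses, was higher (0.94). Without Vehic 1 GABRB1 and NLGN2 did not pass (-0.74 and 0.75, edgeR adjusted p 0.553 and 0.258), nor did GABBR2 without AcMor 3 (-0.71, 0.0630). SLC6A11, a GABA transporter, was lower (-3.95), though the call was lost without Vehic 1 (-2.64). DLX neurons showed the same order for GLRA2, at 126, 154 and 246 CPM in 2DCocu and 37.4, 52.5 and 99.9 CPM in 3DFusi. So did their medians for GABBR2 (105 and 75.0 CPM), NLGN2 (33.0 and 67.8 CPM) and SLC6A11 (8.26 and 4.07 CPM). GABRB1 had the opposite order in DLX neurons, with medians of 31.3 and 44.7 CPM. Whether these differences are particular to members was not tested.

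Neuron maturation genes were divided, with VAMP2 (2.20) and NEFL (3.14) higher and RBFOX3 (-1.71), GAP43 (-1.10) and SNAP91 (-0.68) lower among 13 tested, against 7.15% and 9.86% of all genes. ADARB2 and MEIS2, both abundant in members, fell with log2 fold changes of -1.91 and -1.79, from medians of 1634 and 2277 CPM in 2DCocu to 336 and 619 CPM, and 420 and 947 CPM, in the 2 tags of 3DFusi. In DLX neurons MEIS2 did not show that order, with medians of 2040 CPM in 3DFusi and 1484 CPM in 2DCocu. Mitochondrial RNA was 2.49% and 3.07% of the members' counts in the 2 tags of 3DFusi, against 0.250% to 3.02% in 2DCocu. All 15 mitochondrial genes tested had log2 fold changes above 0 in 3DFusi (from 1.00 to 2.81, median 1.88), and 11 were called higher by edgeR. The part of the mitochondrial share in the other calls of this contrast was not tested. Of the rule genes, given as a description, SLC6A5 was lower in 3DFusi members (-3.10) and GAD1 too (-1.15), while PAX2 had 0.07.

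**Figure D4:**
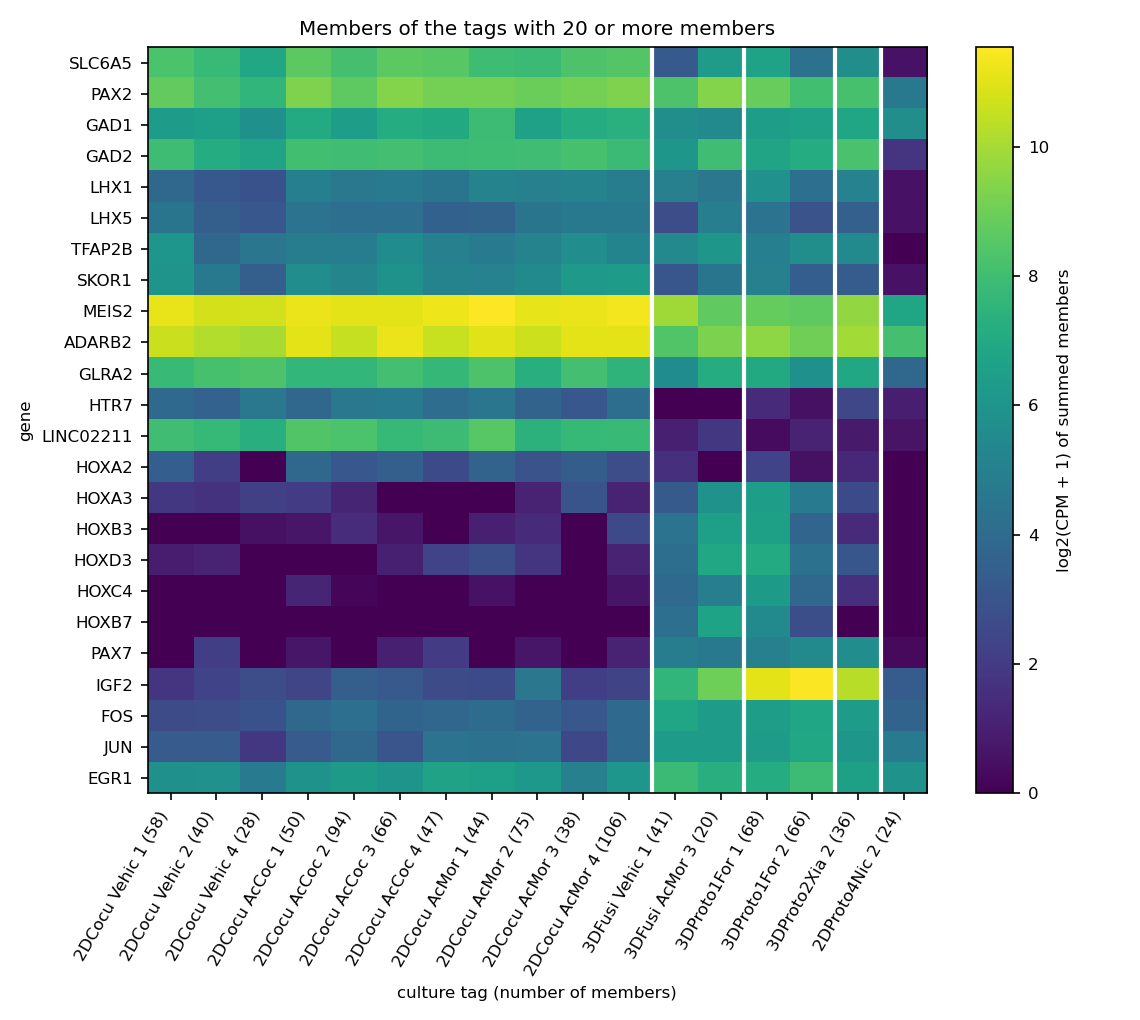
Levels of 24 genes, as log2(CPM + 1) of the summed members, in the 17 tags with at least 20 members. HOXB7 is at 0 in the 11 tags of 2DCocu and at 102 and 17.9 CPM in those of 3DFusi, and the member sum of 2DProto4Nic 2 is near 0 for LHX1, LHX5 and TFAP2B.

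RNA of other cell types was measured in the same sums. The 8 mesenchymal genes summed to 84.1 to 554 CPM in 2DCocu members (median 109), to 231 and 434 CPM in 3DFusi, and to 1446 and 2000 CPM in 3DProto1For, 1557 CPM in 2DProto4Nic 2 and 1114 CPM in 3DProto2Xia 2. None of the 6 tested mesenchymal genes passed between 3DFusi and 2DCocu by edgeR, with 1 at an unadjusted p under 0.05, and DESeq2 called 1 higher in 3DFusi. Astrocyte genes summed to 350 to 626 CPM in 2DCocu and to 330 and 828 CPM in 3DFusi, with SLC1A3 and GJA1 higher and ALDH1L1 and SLC1A2 lower in 3DFusi among 5 tested, against 7.15% and 9.86% of all genes. Of all members SLC1A2 had an entry in 81.8%, SLC1A3 in 29.2%, GJA1 in 14.2%, ALDH1L1 in 11.7% and GFAP in 10.4%. S100B had an entry in 2.28%, AGT in 2.09% and AQP4 in 0.285%. Of other sums in 3DFusi Vehic 1, the tag on which most of the 2041 calls rest, and 3DFusi AcMor 3, cycling genes stood at 665 and 29.5 CPM against 17.3 to 201 CPM in 2DCocu, progenitor genes at 588 and 215 CPM against 97.3 to 289 CPM, and floor plate or ciliated genes at 552 and 82.8 CPM against 94.1 to 184 CPM. Choroid plexus genes were at 27.6 and 38.4 CPM against 2.27 to 26.3 CPM, genes of monoamine and cholinergic neurons at 14.2 and 54.7 CPM against 1.87 to 21.2 CPM, and otic or kidney genes at 27.5 and 46.3 CPM against 10.7 to 35.5 CPM. Vehic 1 was thus the higher in the first 3 of these sums and AcMor 3 in the others. Vehic 1 was also the higher for glutamatergic genes (352 and 268 CPM, against 195 to 279 CPM in 2DCocu). The same held for oligodendrocyte lineage genes (40.2 and 24.8 CPM, against 7.04 to 27.1 CPM) and retina genes (11.3 and 0 CPM, against 1.01 to 5.22 CPM). Muscle genes reached 9.29 CPM in 3DFusi and 14.2 CPM in 2DCocu, and stood at 336 and 552 CPM in 3DProto1For 1 and 2 and at 259 CPM in 3DProto2Xia 2. The progenitor filament gene NES (1.44, edgeR adjusted p 0.0225) and the cilium gene CCDC39 (0.96, 0.0403) were called higher in 3DFusi, and edgeR called 0 of 5 cycling genes, with 3 higher at an unadjusted p under 0.05, and DESeq2 0. PAX2 also marks the kidney and the ear: WT1 had an entry in 5 members, CDH16 in 1 and OC90 in none. Their part in the results was not tested.

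Responses to treatment were tested in 2DCocu members over 11 tags, with 4 AcCoc, 4 AcMor and 3 Vehic tags (Vehic 3, with 14 members, did not enter). For AcCoc against Vehic 4 of 10707 genes (0.0374%) passed edgeR's test, 2 higher (0.0187%) and 2 lower (0.0187%), each with an adjusted p of 0.0419, and 933 had an unadjusted p under 0.05. Leaving out 1 tag at a time gave 0 to 8 genes: 0 without AcCoc 3, AcCoc 4, AcMor 2, AcMor 3, Vehic 2 or Vehic 4, 1 without AcCoc 1, 7 without AcCoc 2 and 8 without Vehic 1. HMGN1, a nucleosome-binding protein, was at 61.6, 51.2, 53.2 and 55.8 CPM in the AcCoc tags and at 23.2, 15.9 and 20.9 CPM in the Vehic tags (log2 fold change 1.43, SE 0.26). The AcMor tags, at 35.6 to 59.7 CPM, also lay above the Vehic tags. MT-ND2, a mitochondrial subunit of complex I, was at 51.5, 84.3, 63.4 and 115 CPM in AcCoc and at 25.0, 19.3 and 10.4 CPM in Vehic (2.05, SE 0.34).

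Mitochondrial RNA as a whole moved with the treatment labels. It made up 1.72%, 2.13%, 1.37% and 3.02% of the members' counts in the AcCoc tags, 1.497%, 2.70%, 2.06% and 1.17% in the AcMor tags, and 0.815%, 0.718% and 0.250% in the Vehic tags. All Vehic tags lay below all others, in members and over all cells of the tags alike, where the share was 1.87% to 3.06% in Vehic and 3.84% to 4.51% in the treated tags. All 14 mitochondrial genes tested had log2 fold changes above 0 in both contrasts, from 1.23 to 2.13 for AcCoc and from 0.96 to 1.96 for AcMor, though MT-ND2 with AcCoc was the only one that passed. Nuclear copies of mitochondrial genes and the pseudogenes of HMGN1 could share reads with them, and how such reads were divided is not given in the sources used here. The part of the mitochondrial share in the other calls was not tested.

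PDGFC, a growth factor ligand, was lower with AcCoc, at 81.7, 105, 82.8 and 91.4 CPM against 146, 178 and 253 CPM in Vehic (log2 fold change -1.10, SE 0.20). RASGEF1B, a Ras exchange factor, was lower too, at 192, 256, 194 and 177 CPM against 387, 345 and 465 CPM (-0.98, SE 0.16). No values overlapped between AcCoc and Vehic for these genes, which is also so for 9.1% of all genes tested (8.42% between AcMor and Vehic). For AcMor against Vehic 1 gene passed (0.00934%), with 941 at an unadjusted p under 0.05: UNC5D, a netrin receptor of axon guidance, at 535, 461, 547 and 461 CPM in AcMor and at 979, 1115 and 954 CPM in Vehic (-1.04, SE 0.16, edgeR adjusted p 0.0140). Its AcCoc values, 427, 693, 579 and 630 CPM, also lay below Vehic. The call was lost without AcMor 2 (-0.99, edgeR adjusted p 0.0794), without AcMor 4 (-1.01, 0.0757) or without Vehic 2 (-0.96, 0.320), and without Vehic 1 15 genes passed. Cycling genes moved with the AcMor label: they summed to 17.3 to 50.7 CPM in AcMor members and to 120 to 173 CPM in Vehic members, against 17.4 to 201 CPM in AcCoc. Of 3 tested in AcMor edgeR called 0, all 3 were lower at an unadjusted p under 0.05 (median log2 fold change -2.05), and DESeq2 called 0. Oligodendrocyte lineage genes summed to 15.7 to 27.1 CPM in AcCoc and 14.6 to 25.7 CPM in AcMor members against 7.04 to 14.3 CPM in Vehic, and glutamatergic genes to 195 to 247 CPM in AcCoc and 255 to 279 CPM in AcMor against 257 to 278 CPM. The part of these genes in the calls was not tested.

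The immediate early genes did not pass edgeR's test in either contrast (0 of 8 tested, 2 at an unadjusted p under 0.05 in each, and 0 called by DESeq2), with median log2 fold changes of 0.56 for AcCoc and 0.37 for AcMor against 0.01 over all genes. The 9 dorsal factors tested, the 16 receptor genes and the 8 genes of inhibitory transmission had 0 calls by edgeR in both contrasts, with 1, 1 and 2 at an unadjusted p under 0.05 for AcCoc and 2, 1 and 3 for AcMor, and DESeq2 called 1 dorsal factor for AcMor and none of the others. As a description, SLC6A5 in members ran from 281 to 401 CPM in AcCoc, from 231 to 349 CPM in AcMor and from 120 to 309 CPM in Vehic, and PAX2 from 412 to 672, from 494 to 625 and from 191 to 431 CPM. Both contrasts share the Vehic tags. No tag of 2DMono or 3DMono reached 20 members, so no test across genes was made there.

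**Figure D5:**
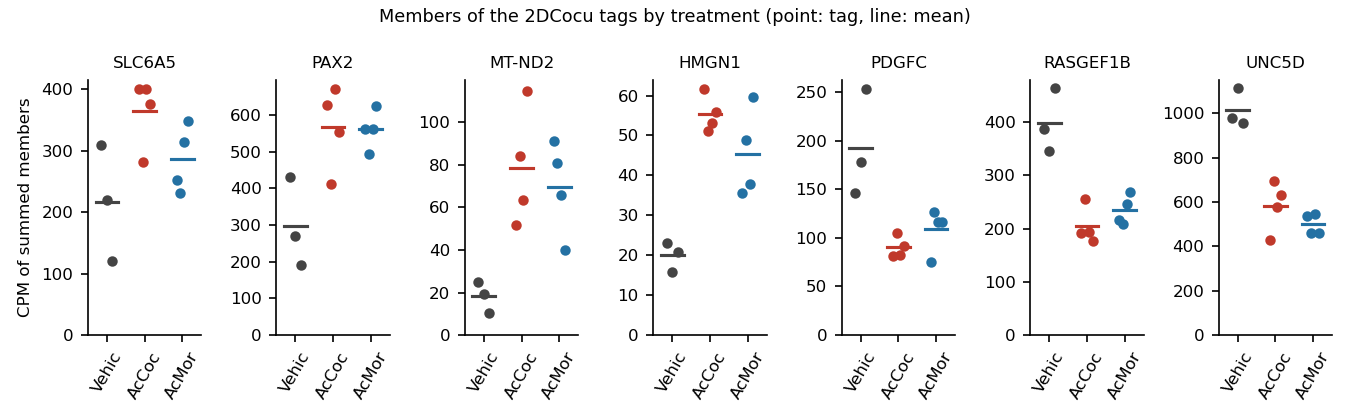
CPM in the members of each 2DCocu tag by treatment for SLC6A5, PAX2 and the 5 genes that passed in a treatment contrast; points are tags and lines are means. HMGN1 and MT-ND2 lie lowest and PDGFC, RASGEF1B and UNC5D highest in the 3 Vehic tags.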

How the data were processed

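The deposited values are expected counts per gene and cell, one matrix for all cells, and 54.3% of the 215531617 entries are whole. Per the submitters' processing notes the authors used Salmon 1.7.0, alevin and Seurat 4.1.1 with build hg38, in roles the notes do not state. The annotation, any use of strand and the handling of reads shared by several genes are not given here. Per the labels' protocols, papain dissociated the organoids.

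Groups came from the culture tags in the cell names. The members and gene lists were chosen with earlier results of these data known. Expected counts of the members of a tag were summed, rounded to whole numbers and tested with edgeR 4.0.16 (R 4.3.3, limma 3.58.1, filterByExpr, TMM, glmQLFit with the robust option, Benjamini-Hochberg adjusted p of 0.05), in sums of at least 20 cells. The self-test, simulated for members against DLX neurons over 13194 genes, called 181 of 184 changed genes and 9 others. It left out genes with low counts and gave all changed genes the same size of change. All genes had the same dispersion and tags had no differences of their own, so the self-test does not give the power in these data. CPM is scaled to the summed counts of the cells and not by gene length. Two-sided exact permutation tests compared the member shares of tags. The genes named are the rule genes, genes of the lists, the 8 largest changes each way among called genes with a symbol and a mean of at least 10 CPM in the higher group, and the 20 genes highest in members over other cells with at least 20 CPM. Some genes of the lists are counted but not reported here by name.

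Doublets were scored against simulated ones: 1368 cells (3.13%) passed a threshold that 39.6% of the simulated doublets passed, and they were kept. Sums of members held 371848 to 2110393 counts in the comparison with DLX neurons. Intervals are exact binomial at 95% and cover counting error only, and a fold against a group at 0 uses a floor of 3 counts over the group. DESeq2 1.42.0, other size factors, no filter, other cell minimums, thinning to 5000 counts, leaving out the cells called doublets, leaving out each tag and blocks were alternatives. Same-numbered tags of 2DCocu did not vary together (correlations of deviations from -0.083 to 0.098), so tag numbers were not taken as pairs.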

Additional observations from a re-analysis of the deposited data

Results flagged for a closer look

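The change in the member share with treatment went opposite ways in 2DCocu and 3DFusi. For AcCoc against Vehic it was 4.13 points of cells in 2DCocu, where every AcCoc tag lay above every Vehic tag, and -2.38 points in 3DFusi, where every AcCoc tag lay below, a difference of 6.51 points. For AcMor the changes were 5.00 and -1.93 points, with tags apart in the same ways, a difference of 6.93 points. The differences between the arrangements were not tested. The direction was the same in each of the 8 sublibraries, with AcCoc changes of 2.10 to 8.25 points in 2DCocu and of -3.69 to -1.37 points in 3DFusi. Sublibraries are parts of a single pool and hold cells of the same tags, so this agreement adds no support.

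With other denominators the tags stayed apart for AcMor. Its difference was 7.51 points of neurons (4.20 against -3.31) and 22.6 points of inhibitory neurons (14.4 against -8.21). For AcCoc the 2DCocu tags overlapped with Vehic there, with changes of 2.27 against -3.83 points of neurons and 10.7 against -8.06 points of inhibitory neurons. These comparisons were chosen after the data had been seen. In 2DCocu the share of neurons among cells moved with the same labels, and whether tags of an arrangement are separate cultures is not stated.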

How the results depend on the processing

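Of the alternatives for shares and counts of genes, 194 kept direction and call, 43 moved a count by over 1.5 times, 5 reversed and 2 lost the call; for single genes 1076 kept direction and call, 165 lost the call and 2 reversed. The cause was not tested. Without 1 tag the differences in the member share ran, in points, from 5.57 to 6.09 (2DCocu minus 2DMono), -5.60 to -5.11 (3DFusi minus 2DCocu), 0.0283 to 0.233 (3DMono minus 2DMono), 3.37 to 4.83 and 4.44 to 5.49 (2DCocu AcCoc and AcMor minus Vehic), -2.70 to -1.998 and -2.35 to -1.55 (3DFusi AcCoc and AcMor), -0.203 to 0.358 and -0.426 to 0.135 (2DMono AcDop and AcMor), and -0.308 to 0.307 and -0.384 to -0.193 (3DMono AcDop and AcMor). The reversals among these were 2DMono AcDop without Vehic 2 (-0.203), 2DMono AcMor without Vehic 1 (0.135), and 3DMono AcDop without AcDop 2 (0.307) and without Vehic 2 (0.0948). With SLC6A5-positive members alone 3DMono minus 2DMono was -0.0713. Over Vehic alone 3DFusi minus 2DCocu was -0.886 and 2DCocu minus 2DMono 3.25. Neither passed the threshold, and with so few Vehic tags neither could. HOXB7 reversed to -0.0371 under DESeq2, and FOXP1, higher in 3DFusi members, to -0.203 without 3DFusi Vehic 1, against up to 2.30 without another tag.

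For members against DLX neurons (197 genes), DESeq2 called 428, no filter 618, at least 10 cells 461, at least 40 cells 4, no replicate block 31, the comparison with inhibitory neurons lacking SLC6A5, PAX2 and DLX genes 1665, thinning to 5000 counts 57, 2DCocu tags alone 871 and the other tags 20, and leaving out 1 tag 102 to 423. For SLC6A5-positive against PAX2-only members (2 genes), DESeq2 and the fit with no replicate block called 0, where edgeR had 495 genes at an unadjusted p under 0.05, no filter 58, at least 10 cells 28 and 2DCocu alone at 10 cells 42. Leaving out a tag and at least 40 cells left too few tags there. For 3DFusi against 2DCocu leaving out 1 tag gave 590 to 2095. For AcCoc (4 genes) DESeq2 called 48, no filter 96, at least 10 cells 16, at least 40 cells 0, the tag number as replicate block 26, and leaving out 1 tag 0 to 8. For AcMor (1 gene) these were 24, 113, 6, 0 and 6, and 0 to 15. Members of 3DMono and 2DMono could not be fitted across genes. Few members per tag and 2 tags in some groups limit all of these comparisons.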

Other observations

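Genes that marked members against all other cells, ranked by the ratio of CPM with the rule genes left out, are a description. SLC30A3 stood first, at 29.3 CPM in members and 0.935 CPM in other cells, with an entry in 35.4% of members. ADARB2, an RNA-editing enzyme relative also known from forebrain interneurons, was at 1060 CPM, with an entry in 76.3% of members and 50.2% of DLX neurons. LAMP5 was at 41.8 CPM in members against 3.20 CPM in other cells, and at 71.1 CPM in 2DCocu members. SV2B, a synaptic vesicle protein, was at 40.5 against 5.90 CPM, and CACNG3, an auxiliary subunit of AMPA receptors, at 23.0 against 4.00 CPM. TFAP2A, TFAP2B, SKOR1, LHX1 and ROBO3 were also among these 20 genes.

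Some of the 20 marked only part of the members. LINC02211 was at 231 CPM in 2DCocu members against 117 CPM over all members. HOXB-AS3 was at 0.479 CPM in 2DCocu members and at 49.3 CPM over all members. MYH8 and MYBPC1, both muscle genes, had an entry in 14 and 20 members, and the same cell of 3DProto1For 2 held 69.2% and 66.9% of their counts. MYH3, another muscle gene, had an entry in 105 members (9.97%).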
